A study of Mus musculus with 3 samples.

Results

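The genes described here are 10 members of the programme by which B lymphocytes are made: *Rag1*, *Rag2*, *Dntt*, *Vpreb1*, *Vpreb3*, *Igll1*, *Ebf1*, *Pax5*, *Sox4* and *Bach2*. They were chosen by symbol, and all 10 were found among the 27998 genes of the count matrix. They were followed in 7057 droplet barcodes kept as cells, each with at least 500 UMIs (distinct RNA molecules read in a droplet), a number of genes within the limits of the study and less than 8.3% of UMIs from mitochondrial genes. The cells came from the meninges, the membranes around the brain, of male C57BL/6J mice aged 10 to 12 weeks. Home cage (HC) mice were unstressed, and chronic social defeat (CSD) mice had been exposed to an aggressor for 14 days and were susceptible by behaviour. Each library pooled 4 mice, giving HC replicate 1, HC replicate 2 and CSD replicate 1, and values of the 3 libraries are always given in that order. With 1 CSD pool, an effect of stress and a peculiarity of that pool or its chip lane cannot be told apart. Live nucleated singlets were sorted with no lineage gate. Membranes were taken from the brain surface and, where still attached, from pieces of skull. The authors avoided leaving skull in the collecting dish, to limit marrow cells in the sample. For immature neutrophils in these data they name recent migration from skull or marrow cells carried over in preparation. Whether B cell precursors were carried over in this way was not tested.

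B lymphocytes assemble the gene for their antigen receptor by cutting and rejoining DNA. RAG1 and RAG2 together form the enzyme that makes the cuts, and terminal deoxynucleotidyl transferase, encoded by *Dntt*, adds bases at the joints of the heavy chain gene. A pro-B cell, which is at this step, becomes a pre-B cell once a heavy chain is made. That chain is displayed with a surrogate light chain, formed by the products of *Vpreb1* and *Igll1*, in the pre-B cell receptor. *Vpreb3* encodes a related protein of B lineage cells. Large pre-B cells divide, then come to rest as small pre-B cells and rearrange the light chain gene, which brings RAG into use again. EBF1 and PAX5 are the transcription factors that specify B lineage and hold its identity, SOX4 acts in early lymphoid progenitors, and BACH2 is a repressor acting at the pre-B cell receptor checkpoint and in mature B cells. Bone marrow is the usual site of these steps in adult mice.

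The genes that work as a pair also lie as neighbours on the chromosome. In GRCm38, *Rag1* (ENSMUSG00000061311, minus strand) lies at chr2:101638282-101649501 and *Rag2* (ENSMUSG00000032864, plus strand) at chr2:101624718-101632529, with 5.752 kb between them. *Vpreb1* (ENSMUSG00000059305) at chr16:16868403-16870843 and *Igll1* (ENSMUSG00000075370) at chr16:16860671-16863985, both on the minus strand, are 4.417 kb apart. The 250 bases before each RefSeq start (GRCm38.p6) are shown for these neighbours, since their levels are compared below. Capitals mark matches, on either strand, to CCCNNGGG, a motif of the kind EBF1 binds, or to the E-box CAGGTG, which E proteins such as the product of *Tcf3* bind.
Rag1, chr2:101649533-101649782, minus strand: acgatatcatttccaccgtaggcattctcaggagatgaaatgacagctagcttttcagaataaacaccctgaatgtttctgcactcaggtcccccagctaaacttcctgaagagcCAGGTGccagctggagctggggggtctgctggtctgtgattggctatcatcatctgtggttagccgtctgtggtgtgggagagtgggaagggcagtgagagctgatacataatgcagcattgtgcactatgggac
Rag2, chr2:101624462-101624711, plus strand: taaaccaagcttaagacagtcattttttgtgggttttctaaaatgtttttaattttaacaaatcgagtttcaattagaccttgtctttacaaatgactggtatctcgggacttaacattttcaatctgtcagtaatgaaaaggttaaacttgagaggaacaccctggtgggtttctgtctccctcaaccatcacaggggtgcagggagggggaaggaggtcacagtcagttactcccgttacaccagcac
Vpreb1, chr16:16869256-16869505, minus strand: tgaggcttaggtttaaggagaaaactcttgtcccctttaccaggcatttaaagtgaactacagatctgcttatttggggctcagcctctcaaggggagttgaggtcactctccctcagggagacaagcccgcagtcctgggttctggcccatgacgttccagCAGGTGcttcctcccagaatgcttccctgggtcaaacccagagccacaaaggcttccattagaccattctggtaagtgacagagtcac
Igll1, chr16:16863986-16864235, minus strand: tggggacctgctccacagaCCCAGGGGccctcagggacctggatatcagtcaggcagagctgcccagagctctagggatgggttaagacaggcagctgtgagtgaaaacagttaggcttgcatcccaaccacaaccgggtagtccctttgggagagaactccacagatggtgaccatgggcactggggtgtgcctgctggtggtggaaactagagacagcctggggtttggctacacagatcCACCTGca
The E-box stood 135 bases before the start of *Rag1*, 88 before *Vpreb1* and 8 before *Igll1*, where it reads CACCTG. The window of *Igll1* also held CCCNNGGG 231 bases before the start, and that of *Rag2* held neither motif. Nor did those of the other 6 members. Over 32851 windows of the same length, 11.82% held CCCNNGGG and 17.22% held CAGGTG, so these are matches of letters common in promoters. The remaining members lie on other chromosomes, *Bach2* (ENSMUSG00000040270) at chr4:32238804-32586108, *Pax5* (ENSMUSG00000014030) at chr4:44524757-44710487, *Vpreb3* (ENSMUSG00000000903) at chr10:75943057-75949657, *Ebf1* (ENSMUSG00000057098) at chr11:44617317-45008091, *Sox4* (ENSMUSG00000076431) at chr13:28948919-28953713 and *Dntt* (ENSMUSG00000025014) at chr19:41029275-41059525. All 10 are annotated as protein-coding.

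*Vpreb1* has a near-identical copy, *Vpreb2* (ENSMUSG00000059280), 1110 kb away at chr16:17980428-17981273. Their coding sequences are 426 bases each and differ at 9 of them (97.89% identity). The stretch from coding base 268 to 387 is shown because it holds 6 of these 9 differences, in capitals.
Vpreb1: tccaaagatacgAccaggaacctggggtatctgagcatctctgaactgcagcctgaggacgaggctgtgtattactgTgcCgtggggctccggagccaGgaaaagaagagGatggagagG
Vpreb2: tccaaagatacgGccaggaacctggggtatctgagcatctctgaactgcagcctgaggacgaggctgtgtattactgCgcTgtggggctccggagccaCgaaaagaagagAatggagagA
The last 300 bases of the transcripts, where the 3′ reads of this assay fall, were 96% identical. How such reads were divided is not given in the sources for these files, so the levels of both genes are uncertain to that extent. *Vpreb2* was counted at 31 UMIs in the pro-B-like subcluster described next and at 0 in mature B-like cells. *Top3b* overlaps *Vpreb1* on the opposite strand. *B230118H07Rik* overlaps *Rag2* on the opposite strand and *Rag1* on the same strand. Reads shared by *Rag1* and this same-strand partner could not be separated here.

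B lineage cells made up 998 of the 7057 cells, 337, 322 and 339 in the 3 libraries, and were clustered again with the 10 genes left out. Thus the levels of the 10 genes played no part in drawing the subclusters, although genes that vary with them did. For that reason differences between subclusters are described and not tested. Subcluster 6 (35 cells) was pro-B-like, subcluster 4 (122 cells) cycling pre-B-like, subclusters 2 (276 cells) and 3 (158 cells) small pre-B or immature-like, and subcluster 1 (382 cells) mature B-like. Subclusters 2 and 3 differed in *Il7r*, the interleukin-7 receptor that early B cells need, at 276 and 18.8 CPM, and in *Ms4a1*, which encodes CD20, at 304 and 2107 CPM. CPM here means counts per 1e+06, the UMIs of a gene scaled to all UMIs of that population and library. Subcluster 4 held *Top2a* and *Mki67*, genes of dividing cells, at 798 and 324 CPM. Subcluster 8 (25 cells) was very rich in RNA, with a median of 8046 UMIs against 1386 to 4144.5 in the others, and received no stage name. The name of subcluster 6 rests on *Lef1* and *Bst1*, seen in all 3 libraries, and on *Il7r*, *Erg*, *Myb* and *Cd93*, each at 0 in 1 library, while *Kit* stood at 0 UMIs there and none of its 10 leading genes is a pro-B marker. *Fcrla*, *Cd22* and *Blk*, 3 of 8 B lineage markers, were also at 0 in it. Subclusters 6, 8, 4, 2 and 3 together are called precursors (616 cells), which here means all B lineage cells outside subcluster 1. Subcluster 3 was the nearest of them to mature cells. The mature B marker list summed to a mean of 8600 CPM in it, against 1595 to 2260 in the other precursors and 16474 in subcluster 1.

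The libraries held 8814690 to 10206236 UMIs, and median depth per cell was 2212 to 2503. Barcodes of at most 100 UMIs, which hold mostly free RNA, took 7.87%, 24.1% and 5.48% of UMIs, so HC replicate 2 carried more of it. If all RNA of neutrophil genes in a B lineage subcluster is taken as free RNA, 18.3% to 38.6% of its UMIs were free RNA. That neutrophil RNA in these cells was free was not tested. Over all B lineage cells the estimate was 28.8%, 25.1% and 28.2%, and so not highest in HC replicate 2. Levels with free RNA subtracted rest on this estimate. In those near-empty barcodes *Vpreb1* stood at 46.3 to 78.5 CPM, *Igll1* at 47.5 to 78.0, *Vpreb3* at 199 to 374, *Ebf1* at 168 to 311 and the other 6 genes at no more than 35.8. NK-like cells, which should lack all but traces of these genes, serve below as a second gauge. Of the kept barcodes, 17 occurred in more than 1 library.

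Across the 3 libraries 9 of the 10 genes were higher in precursors than in mature B-like cells with no overlap between the libraries. *Pax5*, at 129 ± 27 and 121 ± 31.2 CPM (SD, n = 3 libraries), overlapped. Among all 1933 genes seen in over 15% of cells of either population, 882 (45.6%) were higher in precursors in the same way and 229 were lower, and 6 of the 7 members in that set were higher. The count without HC replicate 1 or HC replicate 2 was 9, and without CSD replicate 1 it was 10. These 9 genes did not share 1 pattern within the precursors, as the plot of their levels by subcluster shows.

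**Figure D1:**
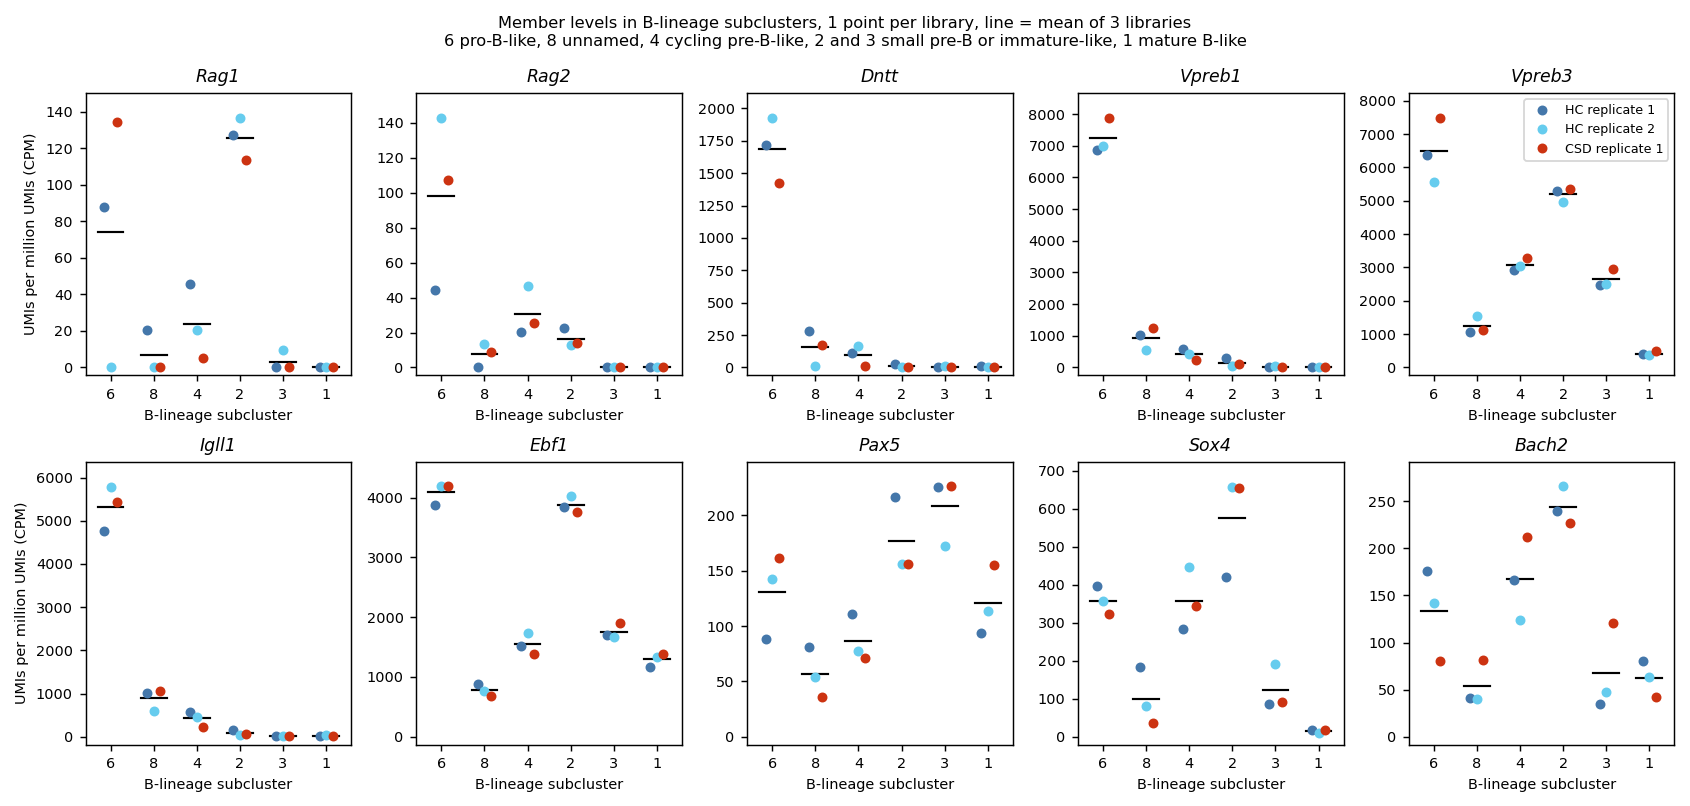
Level of each of the 10 genes in CPM (y axis, from 0) in B lineage subclusters 6, 8, 4, 2, 3 and 1 (x axis); each point is 1 library and each line the mean of 3. *Dntt*, *Vpreb1* and *Igll1* stand high in subcluster 6, *Rag1* in subclusters 6 and 2, and *Pax5* is present in every subcluster including mature B-like subcluster 1.

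*Rag1* was carried mostly by the resting precursors of subcluster 2. In subcluster 2 its level was 127, 136 and 114 CPM, a mean of 126 ± 11.4 (SD, n = 3 libraries). In subcluster 6 it was 88.1, 0 and 134 CPM, from 2, 0 and 5 UMIs, which overlapped subcluster 2. In cycling subcluster 4 it was 45.4, 20.7 and 5.06 CPM, below every library of subcluster 2. Subcluster 3, the small pre-B or immature-like cells low in *Il7r*, had 0, 9.56 and 0 CPM, and mature B-like cells had none. Of the 92 cells in the data with a *Rag1* UMI, 46 belonged to subcluster 2. After each cell was thinned to 500 UMIs so that depth could not set the share, a *Rag1* UMI remained in 8.33% of subcluster 2 and 5.74% of subcluster 4. It remained in 0 of 245 NK-like cells, which allows a share of up to 1.22%, and their median depth was 2116 UMIs against 1386 in subcluster 2.

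*Rag2* was sparser and distributed otherwise. In subcluster 6 it was 44.0, 143 and 107 CPM, a mean of 98.0 ± 49.9 (SD, n = 3 libraries) on 7 UMIs. In subcluster 4 it was 20.2, 46.7 and 25.3 CPM, and in subcluster 2 it was 22.4, 12.99 and 14.2. Subclusters 3 and 1 had 0 UMIs in every library. The libraries of subclusters 4 and 2 overlapped for *Rag2* and did not overlap for *Rag1*. Precursors held 77 UMIs of *Rag1* and 34 of *Rag2* against 0 of either in mature B-like cells. Set against a floor of 3 counts over the mature cells, 5.01 CPM, that made *Rag1* at least 9.55-fold and *Rag2* at least 4.22-fold higher in precursors. Both transcripts were seen in the same cell in 2 cells of subcluster 6, 1 of subcluster 4 and 0 of subcluster 2, where 46 cells had *Rag1* and 7 had *Rag2*. At these counts per cell, the absence of both from 1 cell says little about their joint use.

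*Dntt* was highest in subcluster 6, which held 119 of its 220 UMIs in the B lineage, beside 57 in subcluster 4 and 34 in subcluster 8. Its level there was 1718, 1924 and 1423 CPM, a mean of 1688 ± 252 (SD, n = 3 libraries), and 31 of the 35 cells had a UMI. Subcluster 8 had 285, 13.4 and 172 CPM. In subcluster 4 it was 111, 166 and 15.2 CPM, from 22, 32 and 3 UMIs, of which 24 in HC replicate 2 lay in 1 cell. The level was 29.9, 6.50 and 7.11 CPM in subcluster 2 and 9.41, 0 and 5.97 in mature B-like cells. After thinning, 65.7% of subcluster 6 and 2.46% of subcluster 4 kept a *Dntt* UMI, and 0 of 245 NK-like cells did, which allows up to 1.22%. Thus the subcluster with most *Rag1*-positive cells, subcluster 2, had *Dntt* no higher than 29.9 CPM.

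The surrogate light chain genes *Vpreb1* and *Igll1* moved together. *Vpreb1* stood at 6870, 6983 and 7867 CPM in subcluster 6, a mean of 7240 ± 546 (SD, n = 3 libraries), and at 1017, 564 and 1241 in subcluster 8. It was 571, 441 and 233 CPM in subcluster 4 and 284, 39.0 and 114 in subcluster 2. Subcluster 3, at 8.68, 57.4 and 15.1 CPM, and mature B-like cells, at 23.5, 18.2 and 23.9, lay at the level of NK-like cells, which had 4.74, 35.8 and 25.6. *Igll1* was 4756, 5772 and 5424 CPM in subcluster 6, a mean of 5317 ± 516 (SD, n = 3 libraries), 1017, 604 and 1069 in subcluster 8, and 581, 467 and 218 in subcluster 4. It was 150, 45.5 and 56.9 CPM in subcluster 2 and 18.8, 41.1 and 11.9 in mature B-like cells, again near the NK-like level of 9.49, 35.8 and 4.27. For *Igll1* the libraries of subclusters 6, 8, 4 and 2 did not overlap in that order. For *Vpreb1* subcluster 6 lay apart, while subclusters 8 and 4, and 4 and 2, overlapped.

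The transcripts of *Vpreb1* were packed into few cells. All 35 cells of subcluster 6 had UMIs of both *Vpreb1* and *Igll1*, and 31 had *Dntt* as well. Only 68 cells in the whole data held at least 5 *Vpreb1* UMIs, 32 in subcluster 6, 18 in subcluster 8, 13 in subcluster 4, 3 in subcluster 2 and 2 in subcluster 5, an unnamed group outside the B lineage. Within the B lineage these were 21, 15 and 30 cells of the 3 libraries, and they held 92.6%, 88.0% and 91.5% of its *Vpreb1* UMIs. At 500 UMIs per cell, 94.3% of subcluster 6, 9.84% of subcluster 4, 2.90% of subcluster 2 and 0.785% of mature B-like cells kept a *Vpreb1* UMI, against 0.816% of NK-like cells. The cells of subcluster 4 thus differed among themselves, with 40 of 122 carrying any *Vpreb1* UMI before thinning. Counting intervals on such a level are too narrow, since they do not cover which cells were sampled.

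*Vpreb3* reached further into the lineage. It was 6386, 5558 and 7491 CPM in subcluster 6 and 5306, 4957 and 5354 in subcluster 2, whose means were 6478 ± 970 and 5205 ± 216 (SD, n = 3 libraries). Subclusters 4, with 2924, 3049 and 3273 CPM, and 3, with 2475, 2515 and 2966, overlapped each other and lay below subcluster 2 in every library. Mature B-like cells had 390, 365 and 501 CPM, above the 66.4, 64.4 and 47.0 of NK-like cells. The mean in precursors was 8.26-fold that in mature B-like cells for *Vpreb3*. For *Vpreb1* the means were 674 ± 227 and 21.9 ± 3.15 CPM, and for *Igll1* 553 ± 129 and 23.9 ± 15.2 (SD, n = 3 libraries). For the latter pair the libraries of mature B-like and NK-like cells overlapped, so no fold is given, and with free RNA subtracted the mature means were 7.14 and 12.2 CPM.

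Of the transcription factor genes, *Ebf1* was present in every B lineage subcluster. It stood at 3876, 4204 and 4189 CPM in subcluster 6 and 3839, 4035 and 3768 in subcluster 2, with means of 4089 ± 185 and 3881 ± 138 (SD, n = 3 libraries) that overlapped. Subcluster 3 had 1702, 1664 and 1907 CPM, subcluster 4 had 1515, 1732 and 1386, and mature B-like cells had 1166, 1341 and 1385. Subcluster 8 was lowest at 874, 765 and 688. The level in precursors was 1.70-fold that in mature B-like cells. A thinned *Ebf1* UMI remained in 80.0% of subcluster 6, 50.3% of mature B-like cells and 1.63% of NK-like cells.

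*Pax5*, which holds B cell identity, was the gene that differed least between precursors and mature cells. It was 226, 172 and 227 CPM in subcluster 3 and 217, 156 and 156 in subcluster 2. Subcluster 6 had 88.1, 143 and 161 CPM, subcluster 4 had 111, 77.8 and 70.8, and mature B-like cells had 94.1, 114 and 155. The 3 libraries of each subcluster overlapped those of its neighbour in this order. NK-like cells had 0 UMIs of *Pax5*. Cells with both *Ebf1* and *Pax5* numbered 53 of 382 in mature B-like subcluster 1, where 62 had *Pax5*.

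*Sox4* and *Bach2* were both highest in subcluster 2. *Sox4* stood there at 419, 656 and 654 CPM, a mean of 576 ± 136 (SD, n = 3 libraries), above the 396, 356 and 322 CPM of subcluster 6. Subcluster 4, at 283, 446 and 344 CPM, overlapped both. It was 86.8, 191 and 90.8 CPM in subcluster 3 and 18.8, 9.12 and 17.9 in mature B-like cells, where it was at or below free RNA. *Bach2* was 240, 266 and 228 CPM in subcluster 2, a mean of 244 ± 19.9 (SD, n = 3 libraries), above every library of the other subclusters. It was 167, 124 and 212 CPM in subcluster 4, 34.7, 47.8 and 121 in subcluster 3 and 80.0, 63.9 and 41.8 in mature B-like cells, and its fall from precursors was 2.44-fold. Both genes therefore parted subcluster 2 from subcluster 3, 2 groups that carry the same stage name.

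Put together by cell, the median number of the 10 genes seen in a cell was 6 in subcluster 6, 5 in subcluster 8, 4 in subcluster 4, 3 in subcluster 2 and 2 in subclusters 3 and 1. Thinned to 500 UMIs the medians were 5, 2, 2, 2, 2 and 1. The high number in subcluster 8 was thus lost at equal depth, while that in subcluster 6 was kept.

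**Figure D2:**
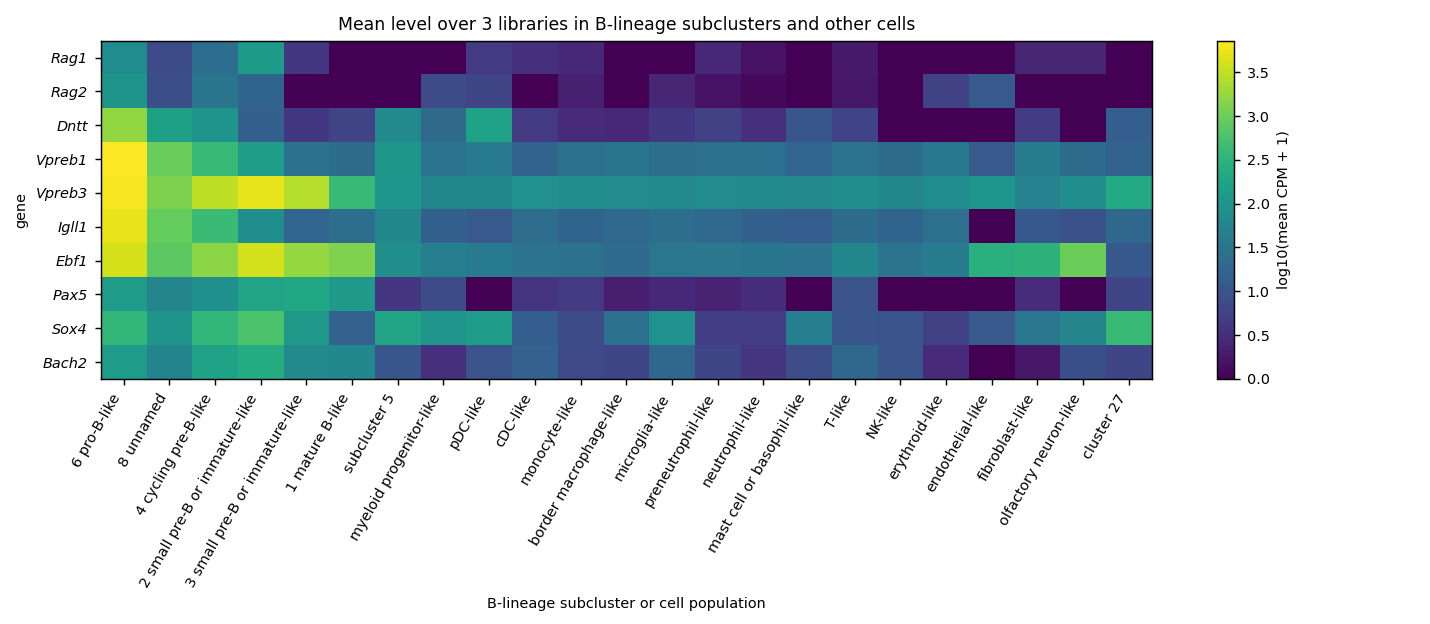
Heat map of the mean level over 3 libraries, as log10(CPM + 1), for the 10 genes (rows) in 23 populations of cells (columns). *Rag1*, *Rag2*, *Vpreb1*, *Igll1* and *Pax5* are brightest in B lineage subclusters, while *Ebf1* is also bright in olfactory neuron-like cells and *Dntt* in pDC-like cells.

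Outside the B lineage 3 of the genes had clear levels of their own. B lineage cells held 85.5% of all *Pax5* UMIs in kept cells, 80.2% of *Vpreb3*, 75.5% of *Rag1*, 72.3% of *Rag2*, 70.7% of *Igll1*, 70.1% of *Ebf1*, 67.9% of *Vpreb1*, 67.6% of *Bach2*, 59.1% of *Dntt* and 56.0% of *Sox4*. *Ebf1*, a factor of olfactory neurons as well as of B cells, stood at 1109, 851 and 969 CPM in olfactory neuron-like cells, a mean of 977 ± 129 (SD, n = 3 libraries). Fibroblast-like cells had 309, 279 and 347 CPM of *Ebf1* and endothelial-like cells 113, 435 and 308, against 28.5, 35.8 and 25.6 in NK-like cells. The olfactory neuron-like level lay below that of mature B-like cells in every library. Unnamed cluster 29, 14 cells, was at 2373, 1166 and 1526 CPM on 14 UMIs in all.

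Outside the B lineage *Dntt* was highest, with all 3 libraries above free RNA, in cells resembling plasmacytoid dendritic cells, the specialised producers of type I interferon, which held 47 of its UMIs. The pDC-like cells had 146, 131 and 215 CPM of *Dntt*, a mean of 164 ± 44.8 (SD, n = 3 libraries), with a UMI in 25 of 68 cells. They had *Rag1* at 10.4, 0 and 0 CPM and *Pax5* at 0 in all 3 libraries. Subcluster 5 held 59 cells, with *Car1*, *Car2*, *Klf1*, *Myb* and *Cdk6* among its leading genes. It was set apart from the B lineage by a median of 149 CPM of *Cd79a* and *Cd79b* together, under the limit of 800. It had 0, 0 and 207 CPM of *Dntt*, so that level rests on CSD replicate 1. *Sox4* stood in the same subcluster at 183, 154 and 193 CPM. It was 77.8, 114 and 70.5 CPM in microglia-like cells and 72.9, 246 and 86.1 in pDC-like cells, all above the highest free RNA level of 35.8. NK-like cells had 0, 14.3 and 12.8.

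**Figure D3:**
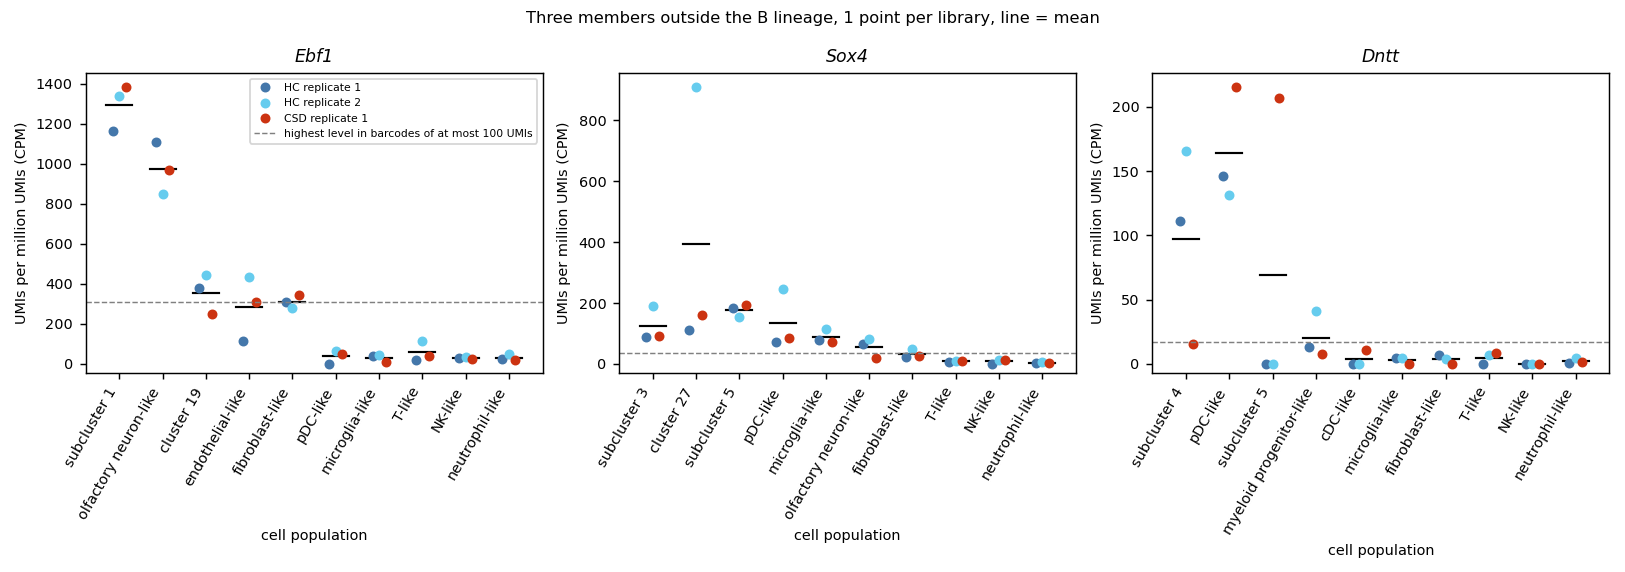
Level in CPM (y axis) of *Ebf1*, *Sox4* and *Dntt* in cells outside the B lineage, 1 point per library; the leftmost entry of each panel is a B lineage subcluster for reference and the dashed line is the highest level in barcodes of at most 100 UMIs. Olfactory neuron-like cells for *Ebf1* and pDC-like cells for *Dntt* lie above the dashed line in all 3 libraries.

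Genes with the most similar pattern were sought by Pearson's r of log2(CPM + 10) over 27 populations, which share libraries and depth, so r is a description. *Pax5* was closest to *Cd79a* (r = 0.98) and *Cd79b* (0.97), the signalling chains of the B cell receptor, and to *Chst3* (0.97). *Vpreb3* was closest to *Cd79b* (0.93) and *Cd79a* (0.92), and *Bach2* to *Cd79b* (0.91), *Pou2af1* (0.91) and *Edaradd* (0.90). *Vpreb1* was closest to its copy *Vpreb2* (0.96), then *Gm12057* (0.91) and *Arpp21* (0.89). *Igll1* was closest to *Vpreb2* (0.94), *Sapcd1* (0.91) and *Gm12057* (0.88), and *Dntt* to *Arpp21* (0.89), *Vpreb2* (0.89) and *Phldb3* (0.87). *Rag1* was closest to *Slc12a3* (0.94), *Gm12057* (0.89) and *Fam53b* (0.89), and *Rag2* to *Msh5* (0.92), *Gm12057* (0.91) and *Slc12a3* (0.88). The nearest were lower for *Ebf1*, with *Dennd5b* (0.88), *Sbk1* (0.86) and *Chchd10* (0.86), and for *Sox4*, with *Hibadh* (0.85), *Pafah1b3* (0.84) and *Acin1* (0.82).

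Other genes of the pathway also differed between the subclusters. *Il7r*, *Lef1*, *Erg* and *Hmgb2* were among the markers used to name the subclusters, so their levels are not separate evidence of stage. *Il7r* had means of 247 CPM in cycling pre-B-like cells and 276 in subcluster 2, beside 18.8 in subcluster 3 and 12.3 in mature B-like cells. In subcluster 6 it was 132, 0 and 510 CPM, so its mean there, 214, rests on CSD replicate 1. *Lef1* and *Erg*, transcription factor genes of early lymphoid cells, were highest in subcluster 6 at 308 and 70.9 CPM, against 35.8 and 7.23 in subcluster 2. *Xrcc6*, which encodes the Ku70 protein of the end-joining step that seals RAG cuts, was 894 CPM in subcluster 6 and 457 CPM in subcluster 2, against 187 in cycling subcluster 4 and 20.7 in mature B-like cells. *Hmgb2* and *Hmgb1*, DNA-bending proteins, were instead highest in subcluster 4 at 4988 and 3588 CPM. The other recombination and repair genes were sparse and did not share a direction. *Xrcc5*, *Xrcc4* and *Nhej1* averaged 8.01, 7.98 and 14.3 CPM in precursors, against 16.8, 18.3 and 17.9 in mature B-like cells. The libraries of precursors and mature B-like cells overlapped for *Xrcc5* and *Nhej1* and did not for *Xrcc4*. *Lig4*, *Dclre1c* and *Polm* went the other way without overlap, at 19.3, 11.1 and 29.8 CPM against 3.04, 1.52 and 7.07. *Prkdc* and *Poll* differed little.

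The share of B lineage cells that were precursors was 60.8% (95% exact binomial interval 55.4 to 66.1), 59.0% (53.4 to 64.4) and 65.2% (59.9 to 70.3), intervals that cover counting error only and overlap. Subcluster 6 numbered 10, 6 and 19 cells, or 2.97% (1.43 to 5.39), 1.86% (0.687 to 4.01) and 5.60% (3.41 to 8.61) of the B lineage. Subcluster 3 moved the other way, at 19.3%, 16.1% and 12.1%. With 1 CSD library against 2, a permutation test over libraries cannot pass 0.05, no other test of the shares was made, and they are given as values. B lineage cells were 12.97%, 18.92% and 12.30% of all kept cells.

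**Figure D4:**
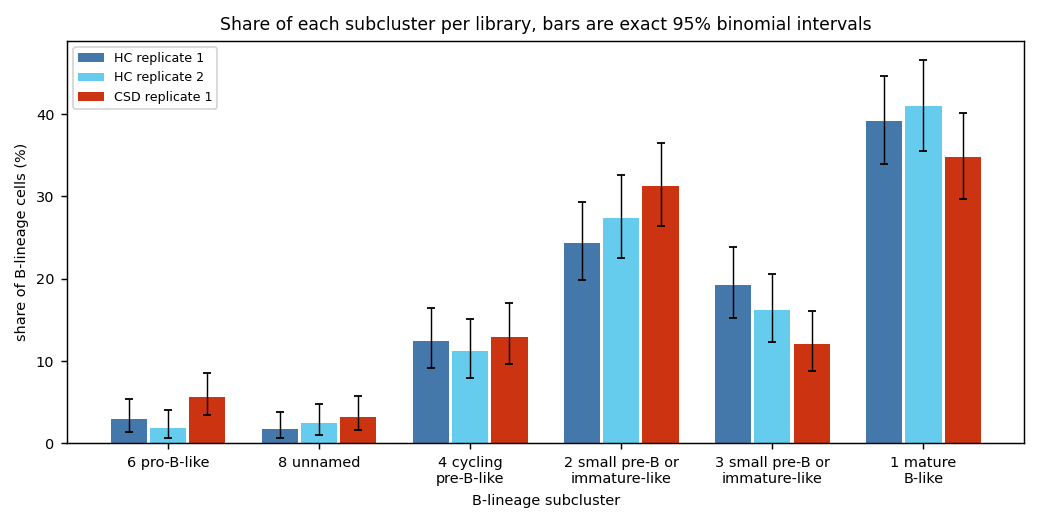
Share of B lineage cells in each subcluster, in percent (y axis), for HC replicate 1, HC replicate 2 and CSD replicate 1; bars start at 0 and error bars are exact 95% binomial intervals. Of the 3 libraries CSD replicate 1 has the highest bar in subcluster 6 (5.60%) and the lowest in subcluster 3 (12.1%), with overlapping intervals.

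Whether defeat changed the 10 genes was asked on UMIs summed by library, with edgeR's quasi-likelihood test. In precursors 3 of 1890 genes were called (0.159%), with log2 fold changes of -3.13 for *Mgp*, -2.73 for *Trem2* and 1.48 for *Ifitm6*. With free RNA subtracted 0 genes were called there. *Mgp* was a leading gene of fibroblast-like cells, which numbered 94, 65 and 9 in the 3 libraries, and their part in its call was not tested. *Ifitm6* was a leading gene of a preneutrophil-like cluster of 198, 141 and 344 cells, whose part was not tested either. Of the 7 members tested in precursors 0 were called, and 1, *Vpreb1*, had an unadjusted p under 0.05. In all B lineage cells 0 of 1571 genes were called (0%), with 89 at an unadjusted p under 0.05 and 1 call by DESeq2. None of the 5 members tested there had an unadjusted p under 0.05. In mature B-like cells 3 of 1042 were called (0.288%), with log2 fold changes of -2.73 for *Mgp*, -0.91 for *Actb* and 0.98 for *Hbb-bs*. *Hbb-bs* was a leading gene of erythroid-like cells, which numbered 10, 11 and 41, and their part was not tested. Of the 3 members tested in mature B-like cells 0 were called, and none had an unadjusted p under 0.05. The effect differed between precursors and mature B-like cells for 6 of 1933 genes (0.31%), none of them a member, and 1 member, *Pax5*, had an unadjusted p under 0.05. *Rag1*, *Rag2* and *Dntt* were too sparse for the filter of a UMI in over 15% of cells.

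*Vpreb1* had the largest difference of the members in precursors. It stood at 690, 439 and 893 CPM, a log2 fold change of 0.69 ± 0.26 (SE; CSD against HC) with an edgeR adjusted p of 0.556. *Igll1* followed at 0.48 ± 0.22 with an adjusted p by edgeR of 0.797. *Bach2* (0.30 ± 0.23), *Pax5* (-0.29 ± 0.30), *Vpreb3* (0.13 ± 0.18), *Ebf1* (-0.06 ± 0.18) and *Sox4* (0.01 ± 0.23) all had edgeR adjusted p of 0.958 or more. The median over the 7 was 0.13, beside 0.00 over all 1890 genes.

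The call on *Vpreb1* depended on the filter. When every gene with at least 10 UMIs was tested, its log2 fold change was 0.72 ± 0.20 in precursors (edgeR adjusted p = 0.0547, with 0.568% of genes called) and 0.81 ± 0.19 in all B lineage cells (adjusted p = 0.00636 by edgeR). That was the only call on a member in any of the alternatives run, where 61 of 8889 genes (0.686%) and 1 of 10 members were called in all B lineage cells. With the same filter edgeR called 0 of 6 members in mature B-like cells, with 0.102% of genes called, and 0 of 10 for the difference of effects, with 0.0562%, and none of these members had an unadjusted p under 0.05. In precursors the edgeR or DESeq2 adjusted p of *Vpreb1* ranged from 0.0547 to 0.9999 over the alternatives, while in all B lineage cells no other alternative tested it. *Rag1*, *Rag2* and *Dntt* then had -0.31 ± 0.39, 0.14 ± 0.57 and 0.11 ± 0.25 in precursors. Without HC replicate 1 the value for *Vpreb1* was 1.07, and without HC replicate 2 it was 0.37.

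Within subclusters the CSD library was not higher throughout. In subcluster 4 the CSD library had the lowest level of *Vpreb1* (233 CPM, 95% exact Poisson interval 170 to 310, against 571 and 441), of *Igll1* (218, against 581 and 467) and of *Dntt* (15.2, against 111 and 166). In subcluster 6 the CSD level of *Vpreb1*, 7867 CPM, exceeded the HC levels of 6870 and 6983, and that subcluster held 19 CSD cells against 10 and 6. The summed level in precursors and the level in subcluster 4 thus pointed in opposite directions. Without subclusters 6 and 8, *Vpreb1* and *Igll1* no longer passed the 15% filter. The neutrophil marker list, 7 of 7 genes seen, summed to 22995, 20319 and 50664 CPM in subcluster 4 and 25764, 22374 and 45646 in subcluster 6, so the CSD library carried more neutrophil RNA there. Its part in the levels was not tested.

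**Figure D5:**
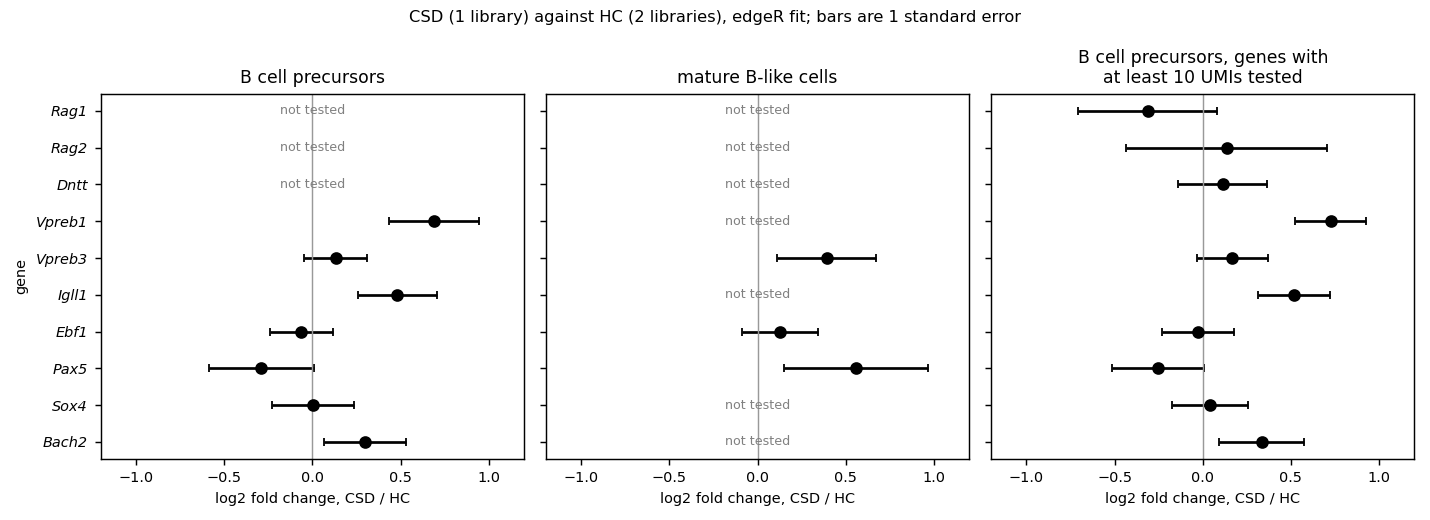
Log2 fold change of CSD against HC (x axis) for the members tested in precursors, in mature B-like cells and in precursors with all genes of at least 10 UMIs; bars are 1 SE. *Vpreb1* lies farthest to the right in precursors, at 0.69, and the other members tested there lie between -0.29 and 0.48.

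In mature B-like cells *Pax5*, *Vpreb3* and *Ebf1* had log2 fold changes of 0.56 ± 0.41, 0.39 ± 0.28 and 0.13 ± 0.21, each with an edgeR adjusted p of 0.988. The difference of the effect between precursors and mature cells was 1.79 ± 0.96 for *Igll1*, 1.06 ± 0.60 for *Bach2* and -0.87 ± 0.44 for *Pax5*, with edgeR adjusted p of 0.837, 0.864 and 0.831. DESeq2 called 0 of the same members in each of these comparisons.

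The other genes of the pathway gave no calls either. In precursors 0 genes passed in either direction among 9 of 16 other transcription factors tested, 2 of 10 receptor and cytokine signalling genes, 8 of 12 pre-B cell receptor signalling genes, 3 of 11 recombination and repair genes and 9 of 12 cell cycle genes, by edgeR. At an unadjusted p under 0.05 there were 1, 1, 0, 1 and 0, and DESeq2 called 1 gene of all 1890 in precursors. Their median log2 fold changes were -0.26, 0.40, -0.13, 0.15 and 0.21. Of the first list *Irf8*, *Spi1* and *Spib*, the best expressed, had -0.26, 0.21 and -0.63. *Il7r* had 0.81 ± 0.23, from 175, 130 and 261 CPM, with an edgeR adjusted p of 0.342, and *Il2rg* had -0.01. *Socs2*, at 28.9, 37.0 and 32.6 CPM, was under the filter. *Cd79b*, *Cd79a* and *Cd72* had -0.13, -0.27 and -0.13. *Hmgb2*, *Hmgb1* and *Xrcc6* had 0.11, 0.15 and 0.59, and *Stmn1*, *Tubb5* and *Hmgn2* had 0.37, 0.25 and 0.11.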

How the data were processed

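Meningeal cells were captured on 1 chip with 10x Chromium 3′ chemistry, and the authors deposited counts of UMIs for every barcode, unnormalized, made with Cell Ranger 2 on mm10 per the labels of the submitters' processing notes. Libraries were told apart by the suffix of each barcode, taken to be the group number in the samples' labels. That match was not verified, and every HC or CSD value rests on it. Clusters were made in Python 3.11.15 with leidenalg 0.10.2, on 2000 variable genes and 30 components after mutual-nearest-neighbour correction. Leiden resolution was 1, and the 10 genes were left out. The B lineage clusters and a myeloid progenitor-like cluster were then clustered again in the same way, on 1500 variable genes and 20 components. This step gave the subclusters. Scrublet was run in scanpy 1.11.5. Populations were named "like" a type from marker lists. The naming limits were set after the data were seen, *Trac* and *Pclaf* were not found by symbol, and no per-sample column was left unused. Scrublet at its automatic threshold marked 47, 25 and 4 cells, which in the CSD library (0.145%) means that it did not work, so no doublet was removed. B lineage cells among the top 5.1% of scores numbered 10, 7 and 9, and their share was highest in subcluster 8, at 28%.

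Counts were summed by library and population and tested with edgeR 4.0.16 (R 4.3.3; quasi-likelihood test, TMM, two-sided, Benjamini-Hochberg adjustment over all genes tested, threshold 0.05), on genes with a UMI in over 15% of cells, with DESeq2 1.42.0 as an alternative. The spread came from the HC libraries alone, taken to hold for the CSD library too. They leave 1 residual degree of freedom per gene, so edgeR moderated the spread across genes. A p-value thus does not rest on that gene's own replicates alone. SEs were derived from the F statistic. Libraries are pools, so p-values speak of spread between pools as modelled across genes, and not of spread between mice. Small p-values thus rest largely on that model. The interaction had library as a block. The fits were tested on simulated data. Members and gene lists were chosen with earlier results of these data known. Named genes are the 10 members, the genes called, the 3 best expressed of each pathway list in B lineage cells, and the 3 most similar to each member, of which 1 is not reported here; *Lef1*, *Erg* and the stage markers were named after their values were seen. Sequences are RefSeq promoters (GRCm38.p6) and GENCODE vM21 transcripts. No paired design was available.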

Additional observations from a re-analysis of the deposited data

Results flagged for a closer look

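The effect of CSD differed between precursors and mature B-like cells for 6 genes by the edgeR interaction term, none of them among the 10 members. The log2 fold change in precursors minus that in mature B-like cells was -0.71 for *Cd74* (edgeR adjusted p = 1.04e-05), -0.81 for *H2-Ab1* (edgeR adjusted p = 5.85e-05), -0.74 for *H2-Aa* (edgeR adjusted p = 0.00212) and -0.86 for *H2-Eb1* (edgeR adjusted p = 0.00278). These are genes of MHC class II antigen presentation, which B cells acquire as they mature. *Cd74* stood at 3815, 3636 and 2230 CPM in the precursors of HC replicate 1, HC replicate 2 and CSD replicate 1, and at 14344, 16455 and 15284 in mature B-like cells. Subcluster 3, the precursors richest in *Ms4a1*, made up 31.7%, 27.4% and 18.6% of precursors in the same libraries, a measure whose part in the result was not tested. DESeq2 called 1 of the 6 genes, *Cd74* (DESeq2 adjusted p = 0.0039), edgeR with free RNA subtracted called 1, *Apoe*, and edgeR without subclusters 6 and 8 called 0 of them, with 92 genes at an unadjusted p under 0.05. Under each of the other 5 alternatives edgeR called 5 of them, all but *Stk17b*. The difference was -0.80 for *Apoe* (edgeR adjusted p = 0.00715), a macrophage gene that was at 1847, 732 and 453 CPM in precursors and 2497, 1264 and 1194 in mature B-like cells. It was 1.35 for *Stk17b* (edgeR adjusted p = 0.0428), at 86.8, 109 and 114 CPM in precursors and 301, 506 and 185 in mature B-like cells, where the HC libraries lay farther apart than in precursors.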

How the results depend on the processing

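The count of 9 members higher in precursors was the same under every alternative run except without CSD replicate 1, where it was 10, and the 15 alternative precursor shares (57.5% to 66.1%) stayed within counting error. Counts of called genes did move. In all B lineage cells, precursors, mature B-like cells and the difference of effects, against 0, 3, 3 and 6, DESeq2 called 1, 1, 0 and 1 and genes of at least 10 UMIs gave 61, 46, 5 and 5. Cells of at least 1000 UMIs gave 0, 0, 8 and 5, no mutual-nearest-neighbour correction 1, 0, 0 and 6, Leiden resolution 2 gave 2, 29, 4 and 5, and subtraction of free RNA 1, 0, 1 and 4. Without subclusters 6 and 8, an alternative chosen after seeing the data, as was leaving out each library for the levels, the counts were 2, 2 and 0 in all B lineage cells, precursors and the difference. Of 169 alternative log2 fold changes of members 10 changed sign, all of them near 0 in the fit reported except for *Sox4* in the difference of effects. *Ebf1* in all B lineage cells became 0.0359 with genes of at least 10 UMIs and 0.0311 without the top 5.1% of Scrublet scores. There it also became 0.0935 without the correction and 0.0118 without subclusters 6 and 8. In precursors *Ebf1* became 0.0578 without the correction. *Sox4* in precursors became -0.00355 by DESeq2 and -0.0267 in cells of at least 1000 UMIs. In the difference of effects (-0.39) it became 5.1 without the cells of highest Scrublet score, 0.0674 without the correction and 0.24 with free RNA subtracted. Leaving out 1 HC library leaves no residual degree of freedom, so counts of calls could not be had. Leaving out HC replicate 1 or HC replicate 2, *Pax5* in all B lineage cells ranged from -0.25 to 0.0936, *Sox4* from -0.14 to 0.35 there and from -0.24 to 0.29 in precursors, and *Igll1* in precursors from 0.24 to 0.74. No paired analysis was possible because HC and CSD share only 1 replicate number. In each case the cause was not tested. Of 20 mean levels of members in precursors and mature B-like cells 13 moved by more than 1 SD when free RNA was subtracted. Depth limits *Rag1* and *Rag2* most, with 77 and 34 UMIs in precursors.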
